A study of Mus musculus with 6 samples.

Results

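A set of 10 mouse genes of cellular iron handling was followed, out of 57180 gene identifiers in an RNA sequencing study of osteoclast formation. They are Tfrc, Slc11a2, Slc11a1 and Hfe of iron uptake, Steap4 and Steap3 of iron reduction, Slc40a1 of iron export, Ncoa4 of ferritin turnover, and the iron regulatory proteins Aco1 and Ireb2. All 10 were found by symbol and all 10 passed the filter on low values, which kept 11753 genes. The list was chosen by the genes' place in iron handling and with their measured differences between the groups already known, so values of the 10 genes are a description, and no p-value is given for them. The samples were bone marrow-derived macrophages, labelled wild type, kept for 5 days in osteoclast-inducing culture. The 3 Visomitin libraries came from cultures that received Visomitin, a plastoquinone antioxidant joined to a cation that carries it into mitochondria, and the 3 control libraries from cultures that did not. The sources used here give no mouse strain, age or dose, and do not say whether libraries came from separate mice. Errors and p-values thus measure how far these libraries differ among themselves, and part of that may be technical.

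Cells take up transferrin-bound iron through the transferrin receptor, reduce it in endosomes and pass it through a divalent metal transporter into the cytosol. There it is used, stored in ferritin or exported through ferroportin. When iron is scarce, iron regulatory proteins bind hairpins called iron-responsive elements, which protects the Tfrc transcript from decay and holds back translation of ferritin and ferroportin transcripts. Osteoclasts are rich in mitochondria, and in mouse cultures iron taken up through the transferrin receptor is known to promote their formation.

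The hairpins are shown first because iron regulatory proteins bind them. Protein-coding transcripts of GENCODE M21 were searched on the sense strand for a C, 5 bases, the loop CAGTGN and 5 bases that pair with the first 5, with G-T pairs allowed. Of 21901 protein-coding genes, 0.142% had a match in a 5′ UTR and 0.589% in a 3′ UTR. Among the 10 iron genes, Tfrc had 4 matches in its 3′ UTR and Slc40a1 had 1 in its 5′ UTR. Ferritin heavy chain Fth1 and ferritin light chain Ftl1 each had 1 in the 5′ UTR. Each line gives 27 transcript bases, 5′ to 3′, with the loop in capitals.
Tfrc, site 1: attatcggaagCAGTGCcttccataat
Tfrc, site 2: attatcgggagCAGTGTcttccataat
Tfrc, site 3: tatatcggagaCAGTGAtctccatatg
Tfrc, site 4: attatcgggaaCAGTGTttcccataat
Slc40a1: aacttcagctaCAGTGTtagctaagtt
Fth1: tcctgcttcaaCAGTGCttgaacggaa
Ftl1: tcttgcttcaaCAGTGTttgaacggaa

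The Tfrc sites lie on the plus strand of GRCm38 at chr16:32631220-32631246, chr16:32631599-32631625, chr16:32631664-32631690 and chr16:32631711-32631737. Their bulged C stands 889, 1268, 1333 and 1380 bases past the stop codon. The Slc40a1 site is at chr1:45925466-45925492 on the minus strand, with its C 224 bases before the start codon. The sites of Fth1 (chr19:9982733-9982759, plus strand) and Ftl1 (chr7:45459780-45459806, minus strand) have their C 132 and 170 bases before the start codon. A match is a likeness in letters, and these data do not measure binding. Slc11a2 had no match to these letters, which does not show that its transcripts lack a hairpin. The search also found none in Epas1, a transcript known to carry one, as given below.

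Expression is in TPM, each library's transcripts scaled to a fixed sum and corrected for length, with no sequencing depth kept, so depth is unknown. Differences are Visomitin minus control on the log2(TPM + 1) scale, which understates changes of low genes, with 95% intervals from limma. Of the 11753 genes tested, 7.10% passed limma at an adjusted p of 0.05 over all genes, 2.08% higher and 5.03% lower with Visomitin, and 30.4% had group ranges that did not overlap. The calls were 244 higher and 591 lower, and 499 higher and 676 lower after median-ratio scaling, or 559 higher and 651 lower once quantile-normalized. Visomitin 1 stood apart on the second principal component (25.1, against -17.2 and -16.8 for Visomitin 2 and 3 and 2.1 to 4.4 for controls). Without Visomitin 1, 420 genes were higher and 561 lower, and without any other single library 64 to 130 were higher and 244 to 559 lower. Values without that library are given below where they matter.

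Of the 10 iron genes, Tfrc and Steap4 fell with Visomitin, Hfe rose, and 7 did not pass the limma test over all genes. The median log2 difference of the 10 was -0.35, where that of all tested genes was -0.034, and 6 of the 10 had group ranges that did not overlap. Since the genes were picked with this comparison known, nothing is read from these counts beside the 7.10% and 30.4% of all genes. The falls were in a receptor and a reductase of the uptake arm, and export and the iron regulatory proteins had no gene that passed.

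Tfrc (ENSMUSG00000022797) encodes transferrin receptor 1, the main door for transferrin-bound iron. It stood at 15.5, 14.2 and 17.1 TPM in Visomitin libraries 1 to 3, against 49.9, 45.8 and 50.3 TPM in control libraries 1 to 3. Every Visomitin library lay far below every control library, and the spread within each group was small, at 9.23% of the mean with Visomitin and 5.11% in control. The group means were 15.6 ± 1.44 TPM with Visomitin and 48.7 ± 2.49 TPM in control (SD, n = 3 each), 3.11-fold lower with Visomitin. On the log2 scale Tfrc fell by 1.58 (SE 0.10, 95% interval -1.81 to -1.35), rank 73 from the bottom among all tested genes. With each library left out in turn the value stayed between -1.64 and -1.52 and kept its call. In bulk RNA, fewer cells of a type and less RNA per cell cannot be told apart, and this holds for every gene here.

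Slc11a2 (ENSMUSG00000023030) encodes DMT1, which carries ferrous iron out of endosomes. Its values were 31.9, 47.8 and 43.6 TPM with Visomitin, against 57.2, 55.2 and 60.7 TPM in control. The groups did not overlap, and Visomitin 1 was the lowest library. The difference was -0.50 (SE 0.15, 95% interval -0.83 to -0.17) and did not pass. It was -0.33 without Visomitin 1, and it passed after median-ratio scaling or quantile normalization (-0.45 in each).

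Slc11a1 (ENSMUSG00000026177) encodes NRAMP1, a relative of DMT1 that pumps metal ions out of the phagosomes of macrophages. It was the most abundant of the 10 genes in both groups, at 614, 838 and 847 TPM with Visomitin and 756, 689 and 805 TPM in control. The control libraries all lay within the Visomitin range, which Visomitin 1 stretched downward. The difference was 0.02 (SE 0.13, 95% interval -0.28 to 0.32), 0.17 without Visomitin 1, and turned negative without Control 2 (-0.040), Visomitin 2 (-0.053) or Visomitin 3 (-0.061).

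Hfe (ENSMUSG00000006611) encodes an MHC class I-like protein that binds transferrin receptor 1 at the site used by transferrin. Its values were 41.8, 50.9 and 48.0 TPM with Visomitin, against 28.6, 31.2 and 33.4 TPM in control. All Visomitin libraries lay above all controls, the opposite direction to its binding partner Tfrc. The log2 difference was 0.58 (SE 0.11, 95% interval 0.33 to 0.82), or 1.49-fold. The call was lost without Control 1 (0.52), without Control 2 (0.58) or without Visomitin 2 (0.52), and with no filter on low values (0.58). It held without Control 3 (0.63), Visomitin 1 (0.66) or Visomitin 3 (0.56), and the reason for the losses was not tested. The difference itself stayed between 0.52 and 0.69 in all 16 alternatives.

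**Figure D1:**
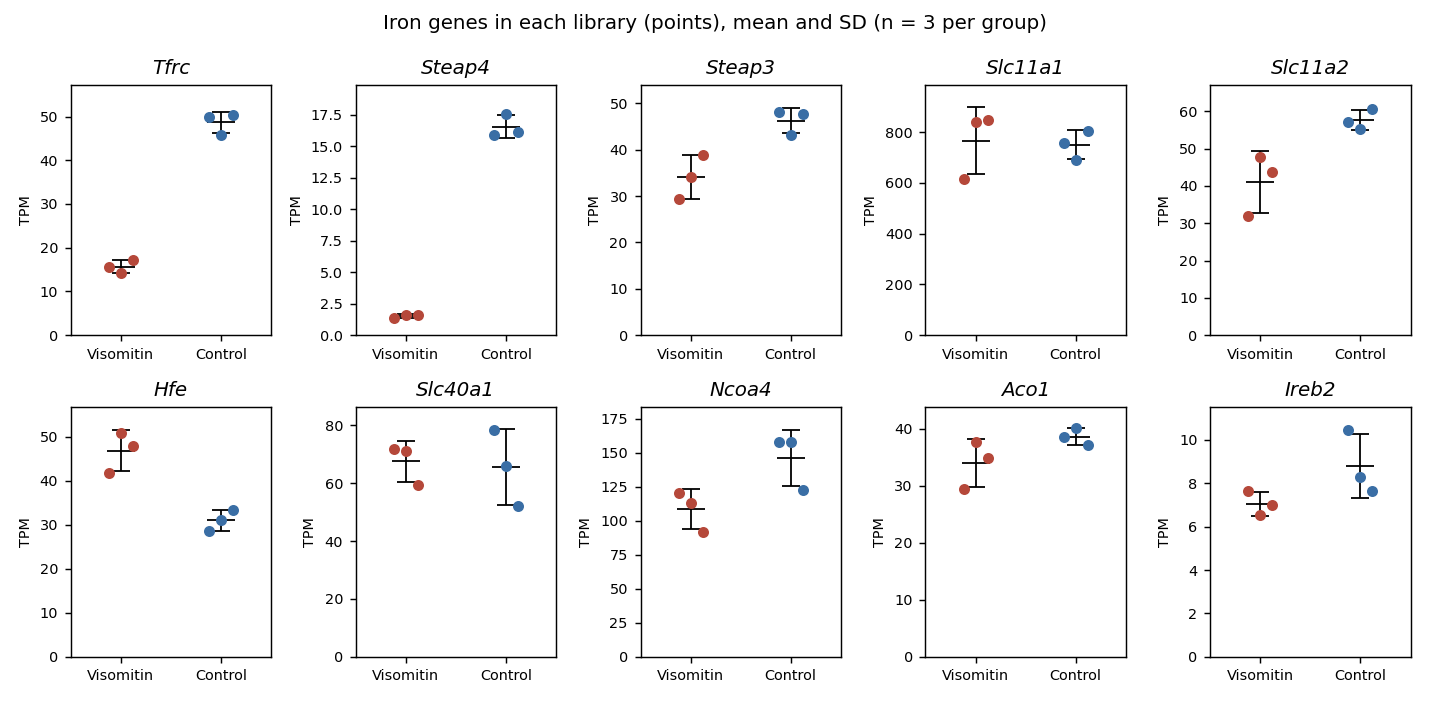
TPM of the 10 iron genes in each of the 6 libraries, Visomitin left of control, with the mean and SD (n = 3 each) in black and every vertical axis starting at 0. Tfrc (14.2 to 17.1 TPM with Visomitin) and Steap4 (1.33 to 1.59 TPM) lie well below their controls, and Hfe lies above its controls.

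Steap4 and Steap3 belong to the STEAP family of metalloreductases, membrane proteins that reduce ferric to ferrous iron so that a transporter can carry it. In mouse cells Steap4 is known to be induced as osteoclasts form, and Steap3 is the endosomal ferrireductase of red cell precursors. Steap4 (ENSMUSG00000012428) stood at 1.33, 1.59 and 1.57 TPM with Visomitin, against 15.9, 17.6 and 16.2 TPM in control. That is 11.1-fold lower by the group means, 1.497 ± 0.145 TPM with Visomitin and 16.6 ± 0.901 TPM in control (SD, n = 3 each). The log2 difference was -2.82 (SE 0.12, 95% interval -3.10 to -2.53), rank 8 from the bottom of all tested genes. Because the Visomitin level is near the pseudocount, the value was -3.39 with a pseudocount of 0.1 and -1.73 with 5, and the call held in all 16 alternatives.

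Steap3 (ENSMUSG00000026389) was at 29.3, 34.2 and 38.9 TPM with Visomitin, against 48.1, 43.1 and 47.6 TPM in control. The groups did not overlap, but the difference of -0.43 (SE 0.12, 95% interval -0.70 to -0.17) did not pass. It passed after median-ratio scaling (-0.39), quantile normalization (-0.38) or array weights (-0.40), and without Visomitin 3 (-0.53). It was -0.33 without Visomitin 1. The ratio of Steap4 to Steap3 within a library depends on no scaling between libraries. It was 0.0404 to 0.0465 with Visomitin and 0.332 to 0.408 in control. Steap3 was the more abundant in every library, by the wider margin with Visomitin. Steap1 and Steap2, the other members of the family, stayed below the filter, at up to 0.66 TPM with Visomitin and 1.05 TPM in control.

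Slc40a1 (ENSMUSG00000025993) encodes ferroportin, the exporter of iron from cells. It was at 71.9, 71.2 and 59.4 TPM with Visomitin and 78.5, 65.9 and 52.1 TPM in control. The control libraries spread over a wider range than the Visomitin libraries and enclosed all of them. The difference was 0.06 (SE 0.15, 95% interval -0.29 to 0.40) and changed sign without Control 3 (-0.096). The interval does not exclude a difference of up to 0.40, so ferroportin transcript is not shown to be the same in the groups.

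Ncoa4 (ENSMUSG00000056234) encodes the receptor that delivers ferritin to autophagosomes, which frees stored iron. It was at 120.7, 113.4 and 92.1 TPM with Visomitin, against 157.9, 158.2 and 122.5 TPM in control. The highest Visomitin library was just under the lowest control. The difference was -0.42 (SE 0.14, 95% interval -0.73 to -0.11), which did not pass, and it passed in 2 of 16 alternatives, array weights (-0.45) among them. Of the 31-base words in Ncoa4 transcripts, 18.8% also occur in other genes, chiefly in Gm6768, which was listed at 0 to 0.28 TPM.

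The iron regulatory proteins are sensors: Aco1 encodes IRP1, which doubles as cytosolic aconitase when it holds an iron-sulfur cluster, and Ireb2 encodes IRP2, which is degraded when iron is plentiful. Aco1 (ENSMUSG00000028405) was at 29.4, 37.7 and 34.8 TPM with Visomitin and 38.6, 40.1 and 37.2 TPM in control. Ireb2 (ENSMUSG00000032293) was at 7.64, 6.52 and 7.0 TPM with Visomitin and 10.5, 8.29 and 7.64 TPM in control. Both were lower on average, with ranges that met or overlapped. The differences were -0.19 (SE 0.11, 95% interval -0.44 to 0.06) for Aco1 and -0.27 (SE 0.14, 95% interval -0.60 to 0.05) for Ireb2. Aco1 was -0.09 without Visomitin 1, and Ireb2 was -0.16 without Control 1 and passed with array weights (-0.38). Aco1 was more abundant than Ireb2 in every library, and Ireb2 was 0.173 to 0.260 of Aco1 with Visomitin and 0.205 to 0.271 in control. Transcript levels do not give the RNA-binding activity of either protein.

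**Figure D2:**
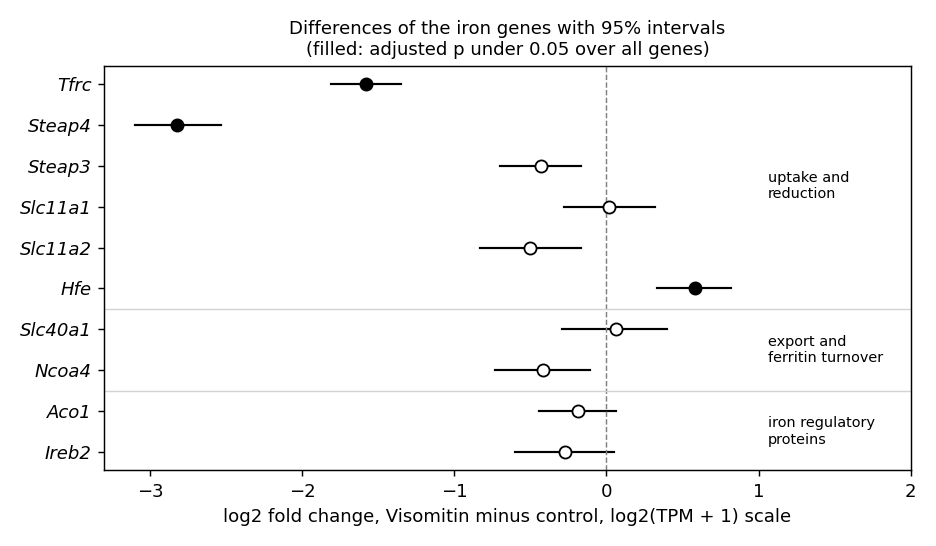
Log2 differences, Visomitin minus control on the log2(TPM + 1) scale, of the 10 iron genes with 95% limma intervals, in 3 role groups divided by grey lines. Filled points passed the test over all genes: Steap4 at -2.82 and Tfrc at -1.58 to the left of 0, and Hfe at 0.58 to the right.

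Set side by side by role, the 6 genes of uptake and reduction had 2 that fell, 1 that rose and 3 that did not pass, with a median log2 difference of -0.47. The pair of export and ferritin turnover had 0 that passed and a median of -0.18. The pair of iron regulatory proteins also had 0 and a median of -0.23. Of all tested genes 7.10% passed, and at that share 0 of 2 is a common outcome, so these counts do not set the roles apart. Whether the role groups differ from one another was not tested. The balance of the transferrin receptor and the exporter within each library is given as a description of 1 pair. It largely restates the fall of Tfrc (-1.58), since the difference of Slc40a1 was 0.06, and it does not stand for the role groups. Tfrc was 0.200 to 0.288 of Slc40a1 with Visomitin and 0.636 to 0.965 of it in control, with log2 ratios of -2.11 ± 0.28 with Visomitin and -0.41 ± 0.32 in control (SD, n = 3 each; difference -1.70). Of the transporter pair, Slc11a2 was 0.0515 to 0.0570 of Slc11a1 with Visomitin and 0.0754 to 0.0800 of it in control, a difference of -0.53 in log2 ratio. That ratio was tight within groups (SD 0.08 with Visomitin and 0.05 in control), although Visomitin 1 was low for each gene alone.

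**Figure D3:**
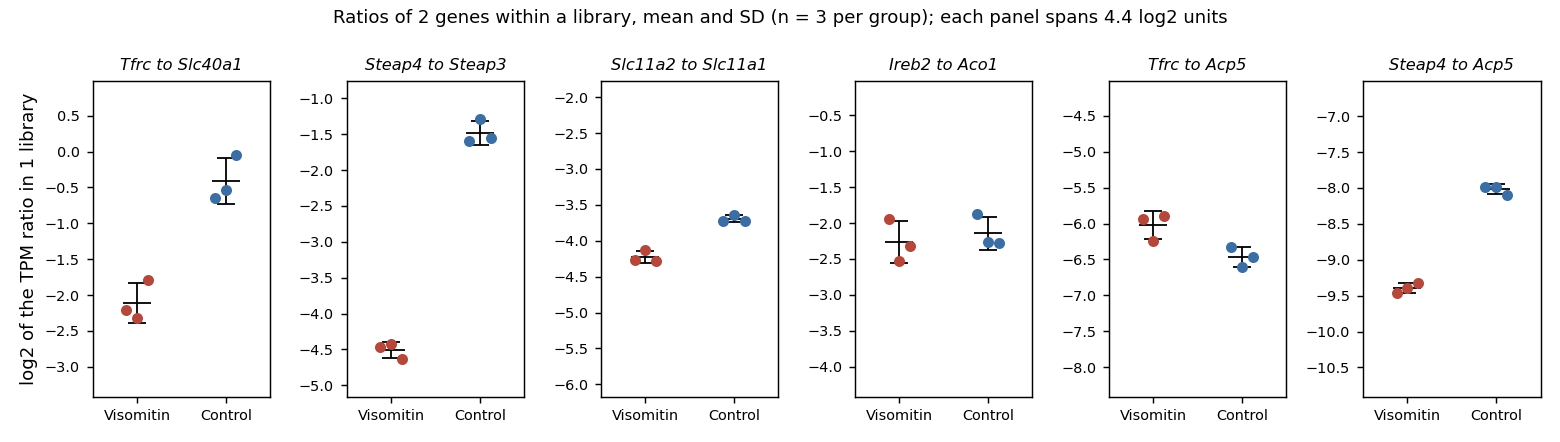
Log2 ratios of TPM for 6 pairs of genes within each library, Visomitin left of control, with the mean and SD (n = 3 each) in black; the vertical axes have equal span and different midpoints. The groups lie apart for 5 pairs, with a difference of -3.03 for Steap4 to Steap3, and overlap for Ireb2 to Aco1. Most pairs hold Tfrc or Steap4, which were picked with their falls known, so nothing is read from the count of pairs.

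The order of levels shifted with these differences. By group mean, Slc11a1, Ncoa4 and Slc40a1 held ranks 1, 2 and 3 with Visomitin and in control. Tfrc was rank 8 with Visomitin and rank 5 in control, Hfe was rank 4 with Visomitin and rank 8 in control, and Steap4 was rank 10 with Visomitin and rank 9 in control. With Visomitin, the neighbours Hfe, Slc11a2, Steap3 and Aco1 overlapped one after another. In control, Slc40a1 overlapped Slc11a2, and Tfrc overlapped Steap3.

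Ferritin, which the 10 genes do not include, holds stored iron, and its transcripts were among the most abundant of all. Ftl1 and Fth1 together made up 8.26%, 8.50% and 8.43% of all TPM in Visomitin libraries 1 to 3, against 7.37%, 7.57% and 7.82% in control libraries 1 to 3. Ftl1 was at 44320 ± 644 TPM with Visomitin and 38520 ± 1290 TPM in control (SD, n = 3 each; log2 difference 0.20, limma adjusted p = 0.16). Fth1 was at 39650 ± 569 TPM with Visomitin and 37380 ± 1350 TPM in control (0.09, limma adjusted p = 0.55). Neither passed, and their group ranges did not overlap. Quantile normalization, which gives equal ranks the same value in every library, set Ftl1 to 0.0 and Fth1 to -0.026. Ftl1 is uncertain because 64.1% of its 31-base words occur in other genes, chiefly the pseudogene Ftl1-ps1 at 64.8 to 82.6 TPM. Within a library, the log2 ratio of Tfrc to summed ferritin was -12.40 ± 0.14 with Visomitin and -10.61 ± 0.08 in control (SD, n = 3 each; difference -1.79).

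Of the transcripts printed with a hairpin, Tfrc fell, and Slc40a1, Fth1 and Ftl1 did not pass. Epas1, a hypoxia factor whose transcript is known to carry such a hairpin but held no match to these letters, was at 1.13 ± 0.186 TPM with Visomitin and 1.98 ± 1.09 TPM in control (-0.42, limma adjusted p = 0.38). Alas2, the red cell enzyme of heme synthesis, had a match in its 5′ UTR and was listed at 0 in all libraries.

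Iron genes outside the 10 numbered 78 with an identifier, of which 58 were tested, 5 fell and 0 rose, beside 5.03% lower and 2.08% higher of all genes. Their split was 7 lower and 3 higher under median-ratio scaling, 6 lower and 3 higher under quantile normalization, 13 lower and 8 higher with array weights, and 5 lower and 2 higher without Visomitin 1. Calls over all genes rose with array weights too, to 1572 lower and 1263 higher. The median log2 difference of the 58 was -0.14. Mitochondrial iron import and iron-sulfur cluster assembly held 4 of the 5: 25 were tested, 4 fell, 0 rose, 21 did not pass, and the median was -0.19. Fdx1, a ferredoxin that passes electrons to cluster assembly and steroid enzymes, was at 10.1 ± 1.17 TPM with Visomitin and 15.7 ± 1.28 TPM in control (SD, n = 3 each; -0.59, limma adjusted p = 0.027). Fdxr, which reduces ferredoxin, was at 10.6 ± 0.715 TPM with Visomitin and 15.1 ± 0.346 TPM in control (-0.47, limma adjusted p = 0.034). Isca1, a late assembly factor, was at 27.2 ± 2.43 TPM with Visomitin and 38.2 ± 2.19 TPM in control (-0.48, limma adjusted p = 0.030). Ciapin1, of cytosolic cluster assembly and named after its values were seen, had -0.50 (limma adjusted p = 0.044). Fdx1 and Fdxr lost their calls without Control 1, Control 2, Control 3 or Visomitin 2, at -0.66 to -0.56 and -0.49 to -0.46 on the log2 scale (limma adjusted p up to 0.11 and 0.13). Isca1 lost its call without any library but Visomitin 1 (-0.52 to -0.43, up to 0.10), and Ciapin1 without any but Visomitin 3 (-0.55 to -0.41, up to 0.15). With no filter on low values all 4 lost their calls (limma adjusted p = 0.071 for Fdx1, 0.062 for Fdxr, 0.064 for Isca1 and 0.11 for Ciapin1), and without the trend Isca1 (0.050) and Ciapin1 (0.066) did. Ciapin1 also lost it under median-ratio scaling (-0.46, limma adjusted p = 0.054) and quantile normalization (-0.45, 0.055), in all 9 of 16 alternatives.

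The lists of other uptake and reduction, storage, export, regulators, heme synthesis and heme breakdown had 0 genes that passed. Of 11 tested genes of other uptake and reduction (median -0.19), the lysosomal heme transporter Slc48a1 was at 248 ± 27.3 TPM with Visomitin and 320.5 ± 15.6 TPM in control (SD, n = 3 each; -0.38, limma adjusted p = 0.055), and it passed in 5 of 16 alternatives. The lysosomal cation channel Mcoln1 was at 54.5 ± 10.7 TPM with Visomitin and 38.3 ± 2.37 TPM in control (0.48, limma adjusted p = 0.090), and Exoc6, an exocyst subunit needed for transferrin recycling in mouse red cell precursors, had 0.46 (limma adjusted p = 0.086). Mcoln1 and Exoc6 passed under median-ratio or quantile scaling and with array weights, and Mcoln1 also without Visomitin 1 (0.65). Of 9 tested genes of heme synthesis (median -0.13), Alas1, the rate-limiting enzyme outside red cells, was at 911 ± 114 TPM with Visomitin and 1167 ± 37.8 TPM in control (-0.36, limma adjusted p = 0.061), and it passed in 2 of 16 alternatives. Uros and Fech of the same pathway had -0.30 and -0.17 (limma adjusted p = 0.18 and 0.28). Of 4 genes of heme breakdown (median -0.07), heme oxygenase Hmox1, which frees iron from heme, was at 344 ± 59.0 TPM with Visomitin and 525.6 ± 103 TPM in control (-0.61, limma adjusted p = 0.060). It passed in 3 of 16 alternatives, among them without Visomitin 3 (-0.72) and with array weights (-0.48). The biliverdin reductases Blvrb and Blvra had 0.20 and -0.16 (limma adjusted p = 0.15 and 0.37).

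Among storage proteins and chaperones, 4 were tested with a median of 0.14, and the iron chaperone gene Pcbp2 had 0.29 (limma adjusted p = 0.13). Pcbp2 passed under median-ratio scaling (0.34), with array weights (0.38) and without Visomitin 1 (0.40). Flvcr1, a heme exporter, was the only tested gene of 6 in the list of other exporters and ferroxidases (0.09, limma adjusted p = 0.67). Ceruloplasmin and hephaestin, the ferroxidases that work with ferroportin, were under 1 TPM, and the hepcidin genes Hamp and Hamp2 were listed at 0. Of 3 tested regulators (median -0.28), Fbxl5, which targets the iron regulatory proteins for degradation, had 0.22 and Neo1 had -0.28 (limma adjusted p = 0.20 and 0.38).

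**Figure D4:**
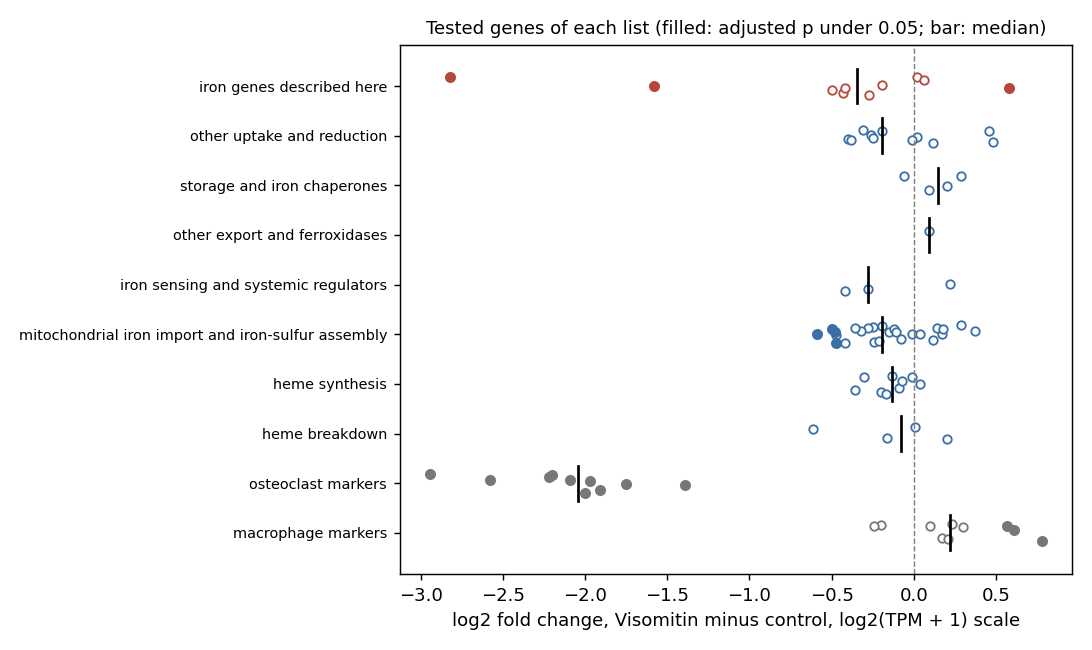
Log2 differences, Visomitin minus control on the log2(TPM + 1) scale, of every tested gene in the iron lists, leaving out the list of hairpin transcripts, and in 2 marker lists, with the list median as a bar and genes that passed filled. Of the tested iron genes drawn, Tfrc (-1.58) and Steap4 (-2.82) reach into the range of the osteoclast markers, which runs from -2.94 to -1.39.

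Markers were checked beside these values. All 10 osteoclast markers fell (median -2.04), with summed levels of 2938 to 3531 TPM in Visomitin libraries and 11171 to 12121 TPM in control libraries. Acp5 had -2.09 and Ctsk -2.22 (limma adjusted p = 9.0e-06 each). Of 10 macrophage markers, 3 rose and 0 fell (median 0.22), with summed levels of 42120 to 47363 TPM in Visomitin libraries and 36440 to 40753 TPM in control libraries. Most of that sum was Lyz2, at 39910 ± 2020 TPM with Visomitin and 34410 ± 2180 TPM in control (SD, n = 3 each; limma adjusted p = 0.18). Differences were above 0 for 8 of the macrophage markers and below 0 for 2, Cd68 (-0.20) and Fcgr1 (-0.24). Adgre1 and Csf1r had 0.23 and 0.10 (limma adjusted p = 0.24 and 0.76). The part of a shift in cell types in the differences of Tfrc, Steap4 and Hfe was not tested. Set against Acp5 within each library, Tfrc had a log2 ratio of -6.02 ± 0.19 with Visomitin and -6.46 ± 0.13 in control (SD, n = 3 each; difference 0.45). Steap4 had one of -9.40 ± 0.07 with Visomitin and -8.02 ± 0.07 in control (difference -1.38). Neither pair of ranges overlapped, so by these ratios Tfrc dropped less than Acp5 and Steap4 dropped more. The reading for Tfrc depends on the marker: Mmp9 fell less than Tfrc (-1.39 against -1.58), and the rest of the osteoclast markers fell more. For Steap4 it depends on the marker and the scale. Dcstamp fell more than Steap4 on the log2(TPM + 1) scale (-2.94 against -2.82) and less by group means (7.98-fold against 11.1-fold). The rest of the osteoclast markers fell less than Steap4. Set against Csf1r, the receptor gene shared by macrophages and their osteoclast descendants, both log2 ratios were lower with Visomitin, with differences of -1.74 for Tfrc and -3.57 for Steap4.

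Red cell precursors use Tfrc and Steap3 heavily, and their markers were near 0: of 10 with an identifier, 8 were listed at 0 in all libraries, the globins among them, and the sum was 0.21 to 0.34 TPM with Visomitin and 0.11 to 0.43 TPM in control. Neutrophil markers, of which 7 of 9 were listed at 0, summed to 8.82 to 15.3 TPM with Visomitin and 11.6 to 19.5 TPM in control, nearly all S100a8. Markers of B and T cells, of which 4 of 9 were listed at 0, summed to 8.78 to 15.2 TPM with Visomitin and 6.15 to 10.9 TPM in control, mostly Cd4. Those of megakaryocytes summed to 352 to 485 TPM with Visomitin and 334 to 457 TPM in control, nearly all Pf4. Stromal markers summed to 178 to 329 TPM with Visomitin and 201 to 607 TPM in control, with Acta2 the highest on average. None of the tested markers of these types passed, and all of these sums overlapped between the groups. The 7 tested stromal markers were nonetheless all below 0 on the log2 scale (median -0.65), and the group ranges of Dcn (-0.49) did not overlap.

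The genes nearest in pattern were found by the Euclidean distance of gene-centred log2(TPM + 1) values over the 6 libraries. For Tfrc they were Ccr3 (distance 0.227), Msi2 (0.252) and Nyap2 (0.282). For Steap4 they were the fusion gene Dcstamp (0.315), the carbonic anhydrase gene Car2 (0.404) and Kbtbd11 (0.412), with log2 differences of -2.94, -2.58 and -3.00. For Slc40a1 they were Ptprc (0.121), Avl9 (0.130) and Ednrb (0.132), with log2 differences of 0.06, 0.08 and 0.14. This distance counts the difference between the groups together with the spread within them.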

How the data were processed

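RNA was measured by stranded mRNA sequencing of 6 libraries in 2 groups, Visomitin and control, of 3 each, per the labels. The values are TPM per gene computed by the authors. The submitters' processing notes name fastp, HISAT2 and StringTie, with versions, genome build, annotation and counter not given in the sources used here. Samples were grouped by the treatment label and columns matched by title.

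TPM were used as deposited. The 11753 of 57180 identifiers that reached 1 TPM in 3 or more libraries were tested on log2(TPM + 1) across all genes with limma 3.58.1 (R 4.3.3, statmod 1.5.0; eBayes with a trend, group as the only term, 4 residual degrees of freedom), two-sided, with Benjamini-Hochberg adjustment at 0.05. The procedure was tested on simulated data with independent genes and equal spread in every library. That test does not cover a library that stands apart, as Visomitin 1 does. Symbols came from GENCODE M21 (51884 identifiers matched), with 3 older symbols found through RefSeq synonyms. Hairpins, positions and shared 31-base words came from GENCODE M21 transcripts on GRCm38, which may not be the authors' build. An exact 0 can be a failed estimate, so such genes are called listed at 0.

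The 10 genes and all lists were chosen with earlier results of these data known. Named were the 10 genes, up to 3 genes of lowest p from each other list with Fth1 and Ftl1, the 3 nearest genes of Tfrc, Steap4 and Slc40a1, and Acp5, Ctsk, Adgre1, Csf1r and the highest marker of each other cell type. The other genes are named after their values were seen. Alternatives were pseudocounts of 0.1 and 5, no filter, a mean of at least 5 TPM, median-ratio scaling, quantile normalization, no mitochondrially encoded genes, no trend, array weights, the library number as a block, and each library left out. Results for some genes of these lists are not reported here.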

Additional observations from a re-analysis of the deposited data

How the results depend on the processing

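Over 16 alternatives for each of the 10 iron genes, 160 values in all, 143 kept their direction and their side of the threshold, 4 lost a call, 9 gained one and 4 changed sign. Tfrc (-1.65 to -1.38) and Steap4 (-3.39 to -1.73) kept their calls throughout. The 4 losses were all Hfe. Sign changes came with a library left out, for Slc11a1 (range -0.061 to 0.17) and Slc40a1 (-0.096 to 0.19), and the difference of the log2 ratio of Ireb2 to Aco1 ranged from -0.28 to 0.02. Fth1 was -0.026 under quantile normalization. The count of the 10 that passed, 3, was 5 after median-ratio scaling, 5 after quantile normalization and 6 with array weights. In the same settings the count over all genes also rose, from 835 to 1175, 1210 and 2835, so nothing is read from the rise among the 10. Of 334 values for the other named iron genes, 282 kept direction and side, 26 lost a call, 25 gained one and 1 changed sign. Their count, 5, was 10 after median-ratio scaling, 9 after quantile normalization, 21 with array weights, 3 without the trend, 1 with no filter, and 1 to 7 with a library left out (1 for each control left out, 2 for Visomitin 2). Over all genes, 835 passed, 630 without the trend, 381 with no filter and 2835 with array weights. With a library left out, 309 to 981 passed (for Control 1, 2 and 3, the counts were 309, 438 and 362, and for Visomitin 2 it was 368). What caused the changed calls and counts was not tested. Dropping any library lowered the residual degrees of freedom from 4. The count was above 835 without Visomitin 1 (981) and below it without any other single library.

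The labels state no pairing, and residual correlations between libraries of the same number were 0.046, 0.02 and 0.173. Of 6 libraries, 3 correlated best with their own number. With the library number as a replicate block 4 of the 10 passed, Ncoa4 being the addition, and 9 of the other iron genes, Hmox1 (-0.61, limma adjusted p = 0.0079) and Slc48a1 (-0.38, 0.041) among the additions. Over all genes 1107 passed with this block, against 835 without it, so the gain was not confined to the iron genes. TPM keep no depth, so the number of libraries limits the precision: 3 against 3 cannot give an exact permutation p under 0.1.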
